A study of Mus musculus with 3 samples.

Results

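The genes described here are 48 mouse genes of the interferon system: the receptor chains, the transcription factors Stat2 and the interferon regulatory factors (IRFs), 2 families of interferon-inducible GTPases, and antiviral effectors. They were taken from a list of names, and 46 of the 48 were matched among the 22457 genes of the deposited tables. Gbp5 and Gbp6 were not matched by their Ensembl identifiers, so no levels are given for them. They enter only the chromosome positions and, for Gbp5, the promoter search. RNA with poly(A) tails was measured in regulatory T cells (Treg cells, a CD4 lineage that depends on Foxp3 and dampens immune responses), taken as primary cells from male adult mice aged 4 months. The labels give 3 libraries, which they call technical replicates 1, 2 and 3 of 1 biological replicate, and RNA sheared to a size range of 100 to 300. They name no strain, sorting gate, treatment or number of animals. There is 1 group and no control, so the comparisons possible are between genes and between libraries of the same cells, and no SD or p-value covers the spread between animals. The SDs cover the spread between libraries, which may be technical.

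Interferons are secreted proteins that warn cells of infection. Type I interferons (alpha and beta) bind the receptor chains Ifnar1 and Ifnar2 and activate a complex that contains Stat2 and Irf9 and binds paired GAAA repeats in target promoters. Interferon gamma binds Ifngr1 and Ifngr2, acts through a palindromic STAT site in its target promoters and also induces Irf1. The targets include GTPases that attack membranes around intracellular microbes, and effectors that act on viral RNA, proteins or budding, and T cells are known to carry both receptors.

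Library totals were 3316275, 3079004 and 2782259 counts in libraries 1, 2 and 3. Levels are given as CPM, that is counts scaled to the same total of 1000000 in every library. Where genes are compared with each other, the level is CPM per kilobase of coding length, written CPM per kb. All 9 Treg and T cell identity genes checked were detected, with Foxp3 at 135, 145 and 146 CPM in libraries 1, 2 and 3. Markers of other cells were low but uneven between the libraries, and their values stand beside the results they move with. In bulk RNA, fewer cells of a type and less RNA per cell cannot be told apart. The deposited counts of densely covered genes were also nearly equal in all libraries: the median ratio of library 3 to library 1 was 0.982 for genes with a density of 1.8 counts per coding base or higher and 0.821 below 0.2, against 0.839 for the totals. Of the 46 matched genes, none lay in the first class, 9 lay between 1 and 1.8 counts per base, and 13 lay below 0.2. For genes with nearly equal counts, CPM is lowest in the library with the largest total, which is library 1.

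All 46 matched genes were detected, at 1 CPM or more in each library, and 45 reached 10 CPM in each. Their median level was 129.6 CPM per kb, against 30.7 for the 10542 detected coding genes. Of the 46, 39 lay above that overall median and 15 were at or above its 90th percentile. Levels spanned from Samhd1 at 510.2 ± 27.3 CPM per kb (SD over 3 libraries, as for every ± below) to Mx1 at 8.47 ± 2.66.

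**Figure D1:**
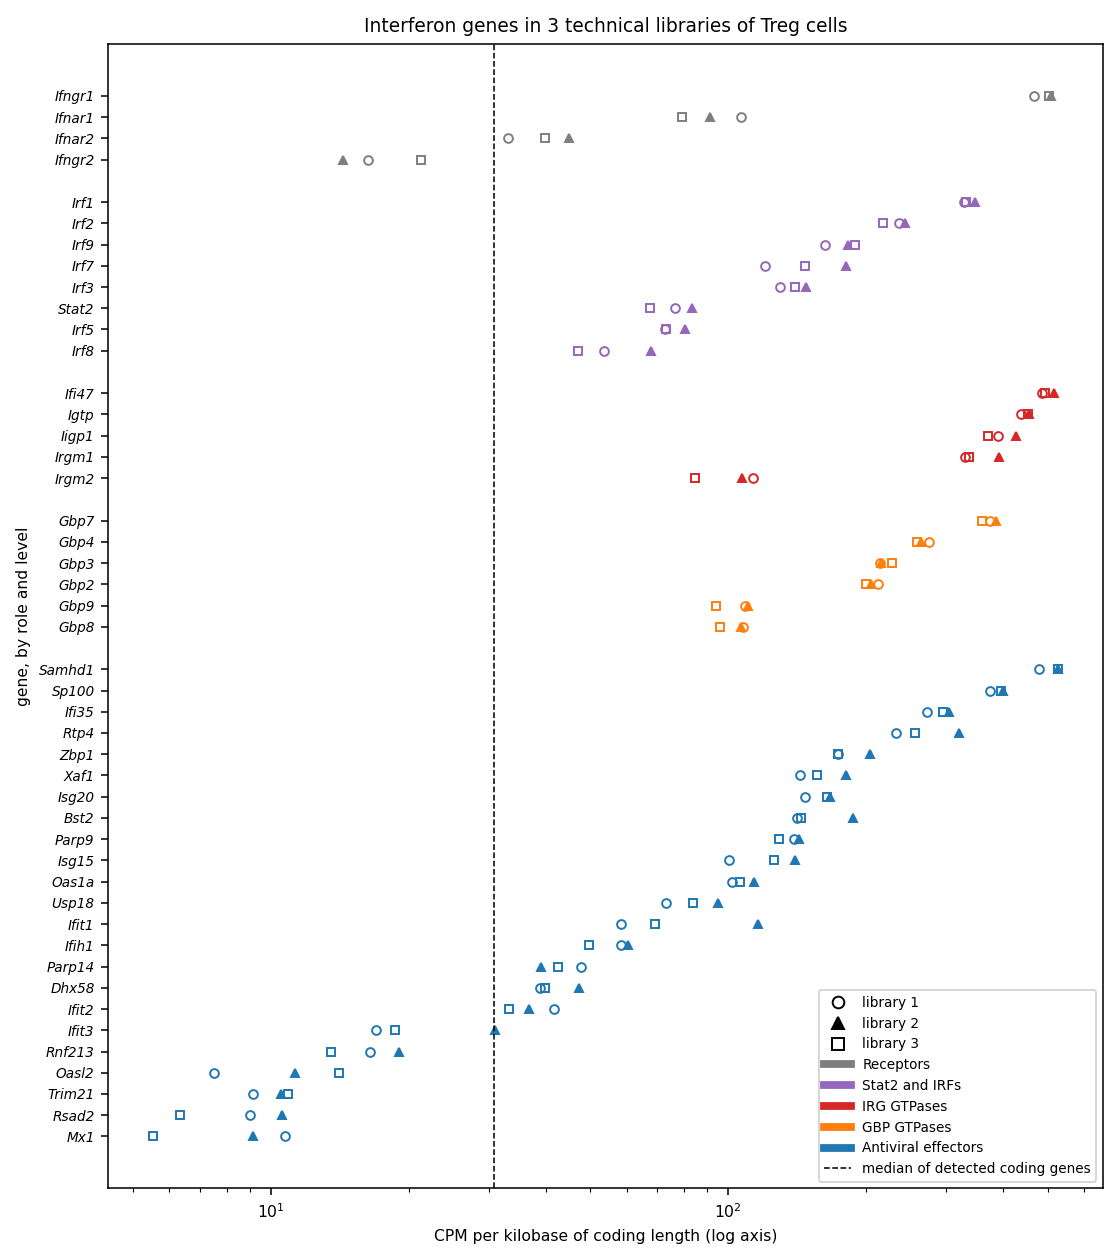
Level of each of the 46 matched interferon genes in CPM per kilobase of coding length (log axis), grouped by role and ordered by mean level; each symbol is 1 of the 3 libraries. Ifngr1, Irf1, 4 of the 5 IRG GTPases, Gbp7, Samhd1 and Sp100 lie above 300 CPM per kb in every library, and the dashed line marks the median of detected coding genes at 30.7.

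The 4 receptor chains were present at very unequal levels. Ifngr1, the chain that binds interferon gamma (chromosome 10, 19591949 to 19610229, GRCm38), had 2219, 2237 and 2004 counts in libraries 1, 2 and 3, which is 493 ± 22.0 CPM per kb. Ifngr2, the chain that couples the same receptor to its kinases (chromosome 16, 91547072 to 91565623), had 54, 44 and 59 counts in the same order, or 17.3 ± 3.57 CPM per kb. Ifngr2 was the only receptor chain below the median of detected coding genes, and its lowest and highest libraries had exact 95% Poisson intervals of 10.4 to 19.2 and 16.1 to 27.4 CPM, which overlap. The ratio of Ifngr1 to Ifngr2 per kb was 28.6, 35.4 and 23.6. Between the highest and lowest libraries Ifngr1 differed 1.09-fold and Ifngr2, with its small counts, 1.48-fold. The type I receptor chains lay between them. Ifnar1, with 647, 515 and 403 counts, stood at 92.5 ± 13.8 CPM per kb, and Ifnar2, with 172, 218 and 174, at 39.2 ± 6.03. Ifnar1 exceeded Ifnar2 per kb by a factor of 3.24, 2.03 and 1.99. Of the coding 31-mers (stretches of 31 bases) of Ifnar2, 18.1% also occur in Gm21970, so part of its reads could be assigned either way. Ifnar1, Ifnar2 and Ifngr2 all lie on chromosome 16.

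All 8 transcription factors of the list lay above the median of detected coding genes. Irf1, the interferon gamma target that itself drives many effector genes, was highest, with 1137, 1115 and 960 counts or 336 ± 10.1 CPM per kb. Irf2, which binds the same sites and is known mainly as a repressor, followed with 849, 814 and 656 counts (233 ± 13.6 CPM per kb). Irf9, the DNA-binding subunit of the type I complex, had 802, 832 and 780 counts (178 ± 13.5 CPM per kb). These first 3 factors kept the same order in every library, with no overlap between neighbours.

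Irf7 and Irf3, which induce type I interferon genes after a microbe is sensed, were close together. Irf7 had 558, 779 and 573 counts (149.8 ± 30.4 CPM per kb), and Irf3 stood at 139 ± 9.41. Irf7 was below Irf3 in library 1 and above it in libraries 2 and 3, so they were not separated by the spread between libraries. Stat2, with 704, 710 and 521 counts (75.9 ± 7.86 CPM per kb), and Irf5, with 390, 399 and 329 (75.5 ± 4.18), also overlapped. Irf8, best known from myeloid and B cells, was lowest at 56.0 ± 10.6 CPM per kb, from 226, 265 and 166 counts.

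The immunity-related GTPases (IRGs) were among the most abundant interferon genes. Ifi47 (Irgd; chromosome 11, 49076587 to 49096974) had 2030, 1998 and 1730 counts, or 498 ± 15.1 CPM per kb. Igtp (Irgm3; chromosome 11, 58199556 to 58207591) had 1838, 1780 and 1596 counts, with levels of 437, 456 and 452 CPM per kb. Iigp1 (Irga6; chromosome 18) had 1598, 1626 and 1279 counts, or 395 ± 28.2. Irgm1, which like Igtp and Irgm2 is one of the regulatory IRGs that keep the others off the cell's own membranes, had 1340, 1475 and 1149 counts, or 352 ± 33.4. In every library these 4 genes were above 300 CPM per kb, and Ifi47 was above Igtp and Igtp above Iigp1 in each.

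Irgm2, also a regulatory IRG, was far lower, with 458, 403 and 287 counts or 101.6 ± 15.1 CPM per kb. The ratio of Igtp to Irgm2 per kb was 3.86, 4.25 and 5.35. The annotated spans of the 2 genes overlap on chromosome 11, and 16.0% of Irgm2's and 14.7% of Igtp's coding 31-mers are shared with other genes, each with the other as main partner, so the split of reads between them is uncertain.

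The guanylate-binding proteins (GBPs), larger GTPases that coat vacuoles and bacteria, were also abundant. Gbp7 (chromosome 3, 142530342 to 142550149) had 2371, 2267 and 1908 counts, or 372 ± 13.2 CPM per kb. Gbp4 (chromosome 5) had 1729, 1536 and 1361 counts, or 266 ± 8.73. Gbp3 had 1326, 1237 and 1184 counts, or 219.9 ± 7.70, and Gbp2 stood at 206 ± 6.47. The lowest were Gbp9, with 672, 631 and 485 counts (104 ± 9.18 CPM per kb), and Gbp8, with 563, 518 and 420 (103 ± 6.63), which overlapped.

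Many of the GTPase genes lie near each other. On chromosome 11, Irgm1 and Ifi47 lie near one another and Igtp and Irgm2 overlap, the 4 spanning 9361 kb in all, and Iigp1 lies on chromosome 18. There are 4 listed GBP genes on chromosome 3 within 144 kb, and 4 on chromosome 5 within 279.5 kb, Gbp5 and Gbp6 counted. The 3 measured GBPs of chromosome 3 ranged from 206 to 372 CPM per kb and the 3 of chromosome 5 from 103 to 266. The chromosome 5 copies are hard to tell apart by reads. Gbp8 shares 46.1% of its coding 31-mers with other genes, Gbp4 41.0% and Gbp9 38.9%, and their annotated spans overlap, so the levels of these 3 are uncertain. On chromosome 3 the shares were 11.0% for Gbp7, 10.2% for Gbp3 and 6.91% for Gbp2.

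Among the 23 antiviral effectors, levels were the most widely spread. Samhd1, which destroys deoxynucleotides (chromosome 2, 157097533 to 157135265), was highest with 3281, 3344 and 3028 counts. Sp100, a nuclear body protein, followed with 2813, 2791 and 2492 counts or 390.0 ± 13.7 CPM per kb. Ifi35 had 776, 803 and 706 counts (291 ± 16.2 CPM per kb), and 20.9% of its 31-mers are shared, mainly with Gm11626. These 3, with Rtp4 at 269.9 ± 45.3 CPM per kb, were the only effectors above the GTPase median.

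A middle tier ran from Zbp1, a sensor of Z-form nucleic acids, at 184 ± 17.4 CPM per kb through Xaf1 at 160.5 ± 19.1, Isg20, an exonuclease, at 159 ± 10.8 and Bst2 (tetherin, which holds budding virus at the cell surface) at 158 ± 25.9 to Parp9 at 137 ± 7.35. Isg15, a ubiquitin-like protein, stood at 122 ± 19.9 CPM per kb, and Usp18, the protease that removes it from proteins and also damps Ifnar2 signalling, at 84.0 ± 11.1. Oas1a, a sensor of double-stranded RNA, had 372, 387 and 326 counts (107.5 ± 6.21 CPM per kb), with 60.9% of its 31-mers shared, mainly with Oas1g.

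The RNA-binding Ifit proteins and the RNA helicases were lower. Ifit1 stood at 81.1 ± 30.7 CPM per kb, Ifit2 at 37.2 ± 4.31 and Ifit3 at 22.2 ± 7.59. Ifit3 shares 78.3% of its 31-mers with its copy Ifit3b, so its level is uncertain. Ifih1 (MDA5) was at 56.1 ± 5.76 CPM per kb and its relative Dhx58 (LGP2) at 41.9 ± 4.67. Parp14, at 43.0 ± 4.36, lay between them.

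The 6 effectors whose mean level was below the median of detected coding genes included several of the best-known interferon targets. These were Ifit3, Rnf213 at 16.3 ± 2.76 CPM per kb, Oasl2 at 11.0 ± 3.32, Trim21 at 10.2 ± 0.929, Rsad2 at 8.64 ± 2.15 and Mx1. Ifit3, whose level is uncertain as said above, reached 30.9 CPM per kb in library 2, where that median was 30.8. Rsad2 (viperin) had 34, 37 and 20 counts, and the exact 95% Poisson intervals of its 3 libraries, 7.10 to 14.3, 8.46 to 16.6 and 4.39 to 11.1 CPM, overlapped. Mx1, itself a dynamin-like GTPase but listed with the effectors, had 67, 53 and 29 counts, and its interval in library 1 (15.7 to 25.7 CPM) lay above that in library 3 (6.98 to 15.0 CPM).

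The listed GTPases were higher than the listed antiviral effectors in every library, as a description of these genes without a test. The median over the 11 measured GTPases was 275, 264 and 258 CPM per kb in libraries 1, 2 and 3, and the median over the 23 effectors was 73.1, 114 and 83.6. On the log2 scale, with 0.1 CPM per kb added, the medians differed by 1.91, 1.21 and 1.63, a mean of 1.58 ± 0.35. The difference was smallest in library 2, where the effector median was highest. All 11 GTPases were above the effector median, and 4 of the 23 effectors were above the GTPase median. At or above the 90th percentile of detected coding genes were 8 of 11 GTPases and 4 of 23 effectors. The groups overlapped: the mean levels of Irgm2, Gbp9 and Gbp8 were below those of Isg15 and Oas1a. Without genes sharing over 20% of their 31-mers the difference was 2.17. Leaving out the genes whose count density reached 0.5 per coding base, which leaves only 3 GTPases and 18 effectors, it was 1.03. Density and CPM per kb both divide counts by coding length, so this filter removes the highest genes of both groups. It cannot show whether the difference depends on density.

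**Figure D2:**
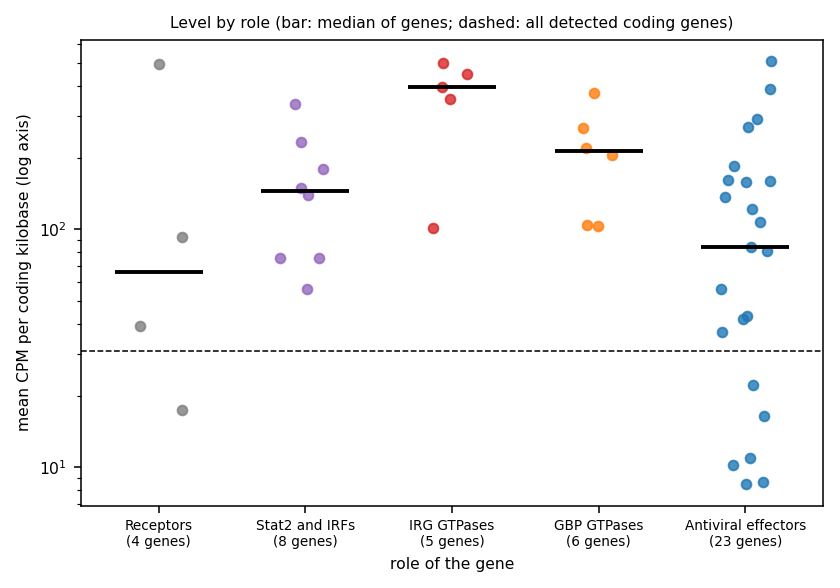
Mean CPM per kilobase of coding length over the 3 libraries (log axis) for each gene, by role; the bar is the median of the genes and the dashed line the median of detected coding genes. The GTPase classes have medians of 395 (IRGs) and 213 (GBPs), the antiviral effectors 84.0 with a spread from 8.47 to 510.2.

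Promoters were compared because the GTPases and effectors are targets of the same 2 pathways. RefSeq's promoter table (GRCm38.p6; 250 bases before to 50 after each start) holds 36 of the 48 genes. Dhx58, Gbp4, Gbp6, Gbp8, Gbp9, Iigp1, Mx1, Parp14, Parp9, Rtp4, Usp18 and Zbp1 are the others. The IRF motif searched was GAAANNGAAA, which reads TTTCNNTTTC on the other strand, and the STAT motif was the palindrome TTCNNNGAA. Both strands were searched. The 150 bases before the start are shown for the 3 highest GTPases and the 3 highest effectors with an IRF motif in that stretch, and for Ifit1, which was added after its values were seen. Each is written 5′ to 3′ along the gene, and capitals mark IRF motifs on either strand.
Igtp, chr11:58199406-58199555, plus strand: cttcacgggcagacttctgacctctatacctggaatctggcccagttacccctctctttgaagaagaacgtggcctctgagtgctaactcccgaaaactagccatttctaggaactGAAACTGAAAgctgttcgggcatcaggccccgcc
Gbp7, chr3:142530186-142530335, plus strand: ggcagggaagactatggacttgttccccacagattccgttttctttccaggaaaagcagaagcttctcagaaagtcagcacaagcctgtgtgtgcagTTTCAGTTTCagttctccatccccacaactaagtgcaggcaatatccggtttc
Irgm1, chr11:48871421-48871570, minus strand: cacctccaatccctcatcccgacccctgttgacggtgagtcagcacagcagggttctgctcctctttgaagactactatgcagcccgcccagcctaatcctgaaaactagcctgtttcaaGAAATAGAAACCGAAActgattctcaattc
Bst2, chr8:71537473-71537622, minus strand: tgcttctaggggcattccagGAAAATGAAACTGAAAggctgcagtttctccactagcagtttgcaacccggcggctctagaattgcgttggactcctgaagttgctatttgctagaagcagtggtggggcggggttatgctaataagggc
Isg15, chr4:156200819-156200968, minus strand: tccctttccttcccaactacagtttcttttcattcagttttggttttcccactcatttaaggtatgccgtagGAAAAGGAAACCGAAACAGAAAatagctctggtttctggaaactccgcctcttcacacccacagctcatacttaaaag
Oas1a, chr5:120907526-120907675, minus strand: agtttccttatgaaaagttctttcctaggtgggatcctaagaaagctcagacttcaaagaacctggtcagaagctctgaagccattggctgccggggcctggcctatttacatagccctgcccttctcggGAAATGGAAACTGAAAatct
Ifit1, chr19:34640739-34640888, plus strand: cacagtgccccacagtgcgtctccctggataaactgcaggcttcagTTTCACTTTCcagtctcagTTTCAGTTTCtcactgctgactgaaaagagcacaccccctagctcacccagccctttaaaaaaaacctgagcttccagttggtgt

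These windows show the motif close to the start in the GTPases Igtp, Gbp7 and Irgm1, and in runs where 1 match continues into the next in Irgm1, Bst2, Isg15 and Oas1a. Isg15 holds 3 matches in 1 run, and Ifit1 holds 2 separate ones that read on the other strand. In all, 17 of the 36 genes (47.2%) held the IRF motif, against 1079 of 27025 genes in the table (3.99%). With the second repeat shortened to GAA, the count stayed at 17 and the share of all genes was 9.76%. By role, it was found in 7 of 8 GTPases, 8 of 16 antiviral effectors, 2 of 8 transcription factors (Irf2 and Stat2) and 0 of 4 receptors. The GTPases with a promoter include Gbp5, whose level was not measured. The GTPase matches outside Gbp5 lay between 15 and 64 bases before the start, and 12 of the 17 genes had a match within 150 bases before it. In Ifih1 and Trim21 the matches lay after the start.

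The STAT motif was found in 15 of 36 genes (41.7%), against 9.55% of all genes in the table. These included 4 of 8 GTPases (Igtp, Irgm2, Gbp5 and Gbp7), 6 of 16 effectors, Irf1, Irf2 and Irf8 among the factors, and Ifnar1 and Ifnar2 among the receptors. In 7 promoters both motifs occurred, and in 1, that of Bst2, they overlapped. Ifi47, the highest GTPase, had no match to the IRF motif in this window, and Rsad2, among the lowest effectors, had 1. A match is a match of letters and not a shown binding site, and no match says only that these letters are not in the window.

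**Figure D3:**
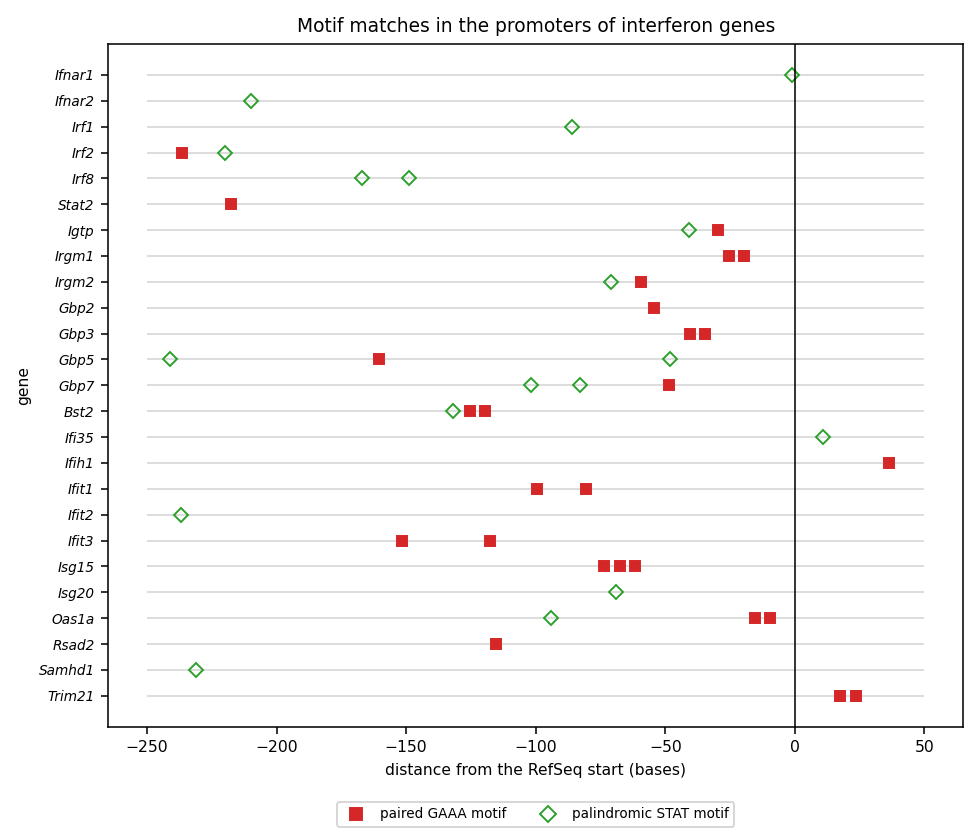
Positions of motif matches relative to the RefSeq start (bases; negative is before the start) in the promoters of the interferon genes with at least 1 match; filled squares are the paired GAAA (IRF) motif, open diamonds the palindromic STAT motif, and grey lines the 300 bases searched. In Igtp and Irgm2 a STAT match lies just before an IRF match, and most GTPase matches lie within 100 bases of the start.

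Several interferon genes were not at the same level in the 3 libraries, and library 2 was the highest for most of them. The clearest case was Ifit1, which binds viral RNA ends (chromosome 19, 34640871 to 34650009), with 268, 496 and 267 counts, or 80.8, 161 and 96.0 CPM. Library 2 stood 1.99-fold above library 1, and its exact 95% Poisson interval of 147 to 176 CPM lay apart from 71.4 to 91.1 in library 1 and 84.8 to 108 in library 3. Its neighbour Ifit3 had 68, 115 and 63 counts, again highest in library 2, while Ifit2, also beside them, stood at 58.8, 51.6 and 46.7 CPM.

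Each gene's counts were compared with the library totals by a chi-square test, adjusted by Benjamini-Hochberg over all 10043 genes whose counts summed to at least 30. At a threshold of 0.05, 24 of the 46 genes differed between libraries, against 22.7% of all genes tested. In 17 of the 46, a called difference went with the highest level in library 2, against 7.03% of all genes tested. By summed counts, genes called were 3 of 6 at 30 to under 300 (all genes 12.9%), 17 of 27 at 300 to under 3000 (25.4%) and 4 of 13 at 3000 or more (60.3%). The chi-square test allows for counting noise only. The quasi-likelihood test of edgeR also takes the spread between libraries into account, and it called 1 of the 46, against 0.438% of all genes. That gene was Ifit1, with library 2 above the other 2 by 0.88 on the log2 scale (edgeR, adjusted p = 0.00245). DESeq2 gave the same difference as 0.88 with a standard error of 0.28 and called none of the 46 after adjustment, and 2 of all genes. Each edgeR and DESeq2 test set 1 library against the other 2, and a gene counted as called if it passed for any library. Leaving out library 1, 2 or 3 left 13, 8 or 14 of the 46 called, where 13.1%, 15.3% and 9.43% of all genes were.

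Among the regulators, 4 of 8 differed by the chi-square test. Irf7 went from 168 CPM in library 1 to 253 in library 2 and 206 in library 3 (adjusted p = 1.2e-10, chi-square test). Irf8 was at 68.2, 86.1 and 59.7 CPM (adjusted p = 0.00513, chi-square test), and Stat2 at 212, 231 and 187 (adjusted p = 0.0109, chi-square test). These 3 were highest in library 2, while Irf9, highest in library 3 at 280.3 CPM, was called with the library totals (adjusted p = 0.0419, chi-square test) and lost with TMM or DESeq2 scaling. Irf1, Irf2, Irf3 and Irf5 did not pass the test.

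Of the 4 receptors, 3 differed and they did not share a direction. Ifnar1 was highest in library 1, at 195, 167 and 145 CPM (adjusted p = 0.000229, chi-square test), and Ifnar2 in library 2, at 51.9, 70.8 and 62.5 (adjusted p = 0.0426, chi-square test). Ifngr1, at 669, 726 and 720.3 CPM, was called with the library totals (adjusted p = 0.0493, chi-square test) and lost with TMM or DESeq2 scaling.

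Among the GTPases, 3 of the 5 IRGs differed. Irgm1 was highest in library 2, at 404, 479 and 413 CPM (adjusted p = 0.000126, chi-square test), as was Iigp1, at 482, 528 and 460 (adjusted p = 0.00586, chi-square test). Irgm2 was highest in library 1, at 138, 131 and 103 CPM (adjusted p = 0.00356, chi-square test). Of the 6 GBPs, none was called by edgeR, DESeq2 or the chi-square test against the library totals, where Gbp9 alone had an unadjusted p under 0.05. With TMM or DESeq2 scaling the chi-square test called Gbp9. Whether the families differ was not tested.

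Of the 23 antiviral effectors, 14 differed, 10 of them with library 2 highest. Besides Ifit1, the lowest adjusted p-values were those of Rnf213, a giant ubiquitin ligase, at 254, 295 and 209 CPM (adjusted p = 5.34e-08, chi-square test), and Rtp4, at 174, 239 and 192 CPM (adjusted p = 7.72e-07, chi-square test). Rtp4 had 577, 737 and 533 counts and Rnf213 844, 907 and 582, so library 2 had the largest count of both although library 1 had the larger total. Ifit3 followed (adjusted p = 0.000892, chi-square test).

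The other effectors highest in library 2 were closer to the threshold. Bst2 had 242, 298 and 207 counts, Isg15 161, 208 and 169, and Usp18 268, 324 and 257. Xaf1 had 456, 534 and 416 counts, Zbp1 770, 838 and 645, and Ifih1 595, 572 and 424, where library 3 stood lowest and libraries 1 and 2 were close. Their adjusted p-values by the chi-square test ran from 0.00838 for Xaf1 to 0.0323 for Isg15. In 4 effectors another library was highest: Parp14 (862, 655 and 643 counts) and Mx1 in library 1, Samhd1 and Oasl2 (38, 53 and 60 counts) in library 3. Their adjusted p-values by the chi-square test were 0.00454, 0.0463, 0.000981 and 0.0401. Samhd1 was densely covered, at 1.56 counts per coding base. Over all genes at 1 to 1.8 counts per base, the median count ratio of library 3 to library 1 was 0.936, against 0.839 for the totals. The part of this in the call of Samhd1 was not tested. Oasl2 was lost with DESeq2 scaling, Mx1 and Ifih1 with totals over sparsely covered genes, and Oasl2 and Mx1, like Ifnar2, Ifngr1 and Irf9, without a count minimum.

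Counted without a threshold, library 2 exceeded the mean CPM of libraries 1 and 3 in 39 of the 46 genes (84.8%; median log2 ratio 0.12), against 4744 of 10043 genes tested (47.2%; median -0.01). The count was 21 of 23 for the effectors (median 0.17), 8 of 8 for the transcription factors (0.14), 5 of 5 for the IRGs (0.12), 3 of 6 for the GBPs (0.03) and 2 of 4 for the receptors (0.02). With TMM scaling in edgeR it was 40 of 46, against 4994 of all genes. Library 2 was singled out after its values were seen, so these counts describe it and are not a test.

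**Figure D4:**
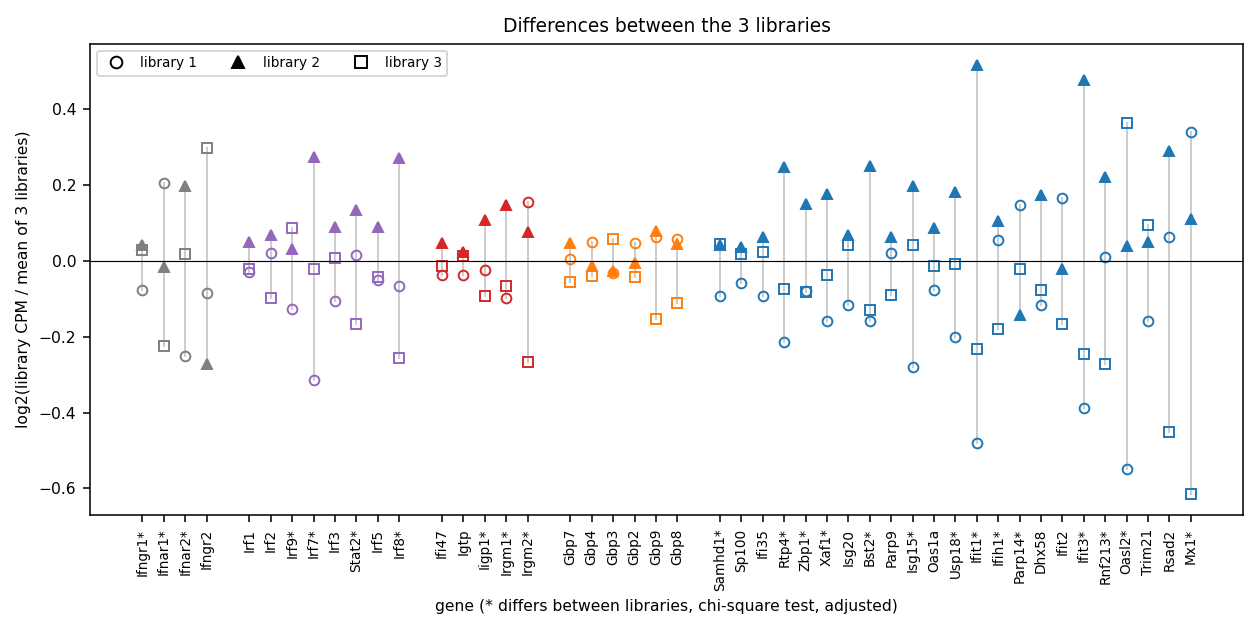
log2 ratio of each library's CPM to the mean of the 3 libraries for each interferon gene, grouped by role and ordered by level; filled triangles are library 2, and a star marks the 24 genes that differ by the chi-square test. Library 2 lies above 0 for all transcription factors, IRGs and most effectors, with Ifit1, Ifit3, Rsad2 and Irf7 farthest up, while the GBPs stay near 0.

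Markers of other cell types also differed between the libraries. The 10 monocyte and macrophage markers summed to 24.1, 94.8 and 41.3 CPM in libraries 1, 2 and 3, of which 4 were detected in every library. Lyz2 had 1, 49 and 11 counts and Apoe 11, 84 and 29, and the defining markers Cd14, Fcgr1 and C1qa had no count in library 1. The 9 dendritic cell markers summed to 28.6, 46.8 and 35.9 CPM, with no count of Clec9a in any library. Among them Ccr9 had the most counts in each library, 60, 46 and 50, and its CPM was highest in library 1. The 4 NK cell markers summed to 3.02, 4.87 and 2.52 CPM, from only 10, 15 and 7 counts, and none was detected in every library. The monocyte and macrophage, dendritic cell and NK cell sums were highest in library 2, as were most interferon genes. The 6 neutrophil markers were near 0, at 0.905, 4.55 and 2.16 CPM. The 12 B cell markers, at 75.1, 192 and 225 CPM, and the 6 erythroid markers, at 6.33, 13.97 and 30.9, were highest in library 3, and so were the plasma cell markers Jchain, with 6, 14 and 68 counts, and Igha, with 12, 68 and 128. The sum over the 5 plasma cell markers, 231, 231 and 212 CPM, was mostly Prdm1, with 747, 628 and 390 counts. Of the CD8 T cell markers, Cd8b1 had 71, 62 and 89 counts, highest in library 3, and Cd8a 0, 0 and 1. For scale, the 23 effectors summed to 4417, 4962 and 4537 CPM and the 8 transcription factors to 1570, 1782 and 1608. The part of these other cells in the difference between libraries was not tested.

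**Figure D5:**
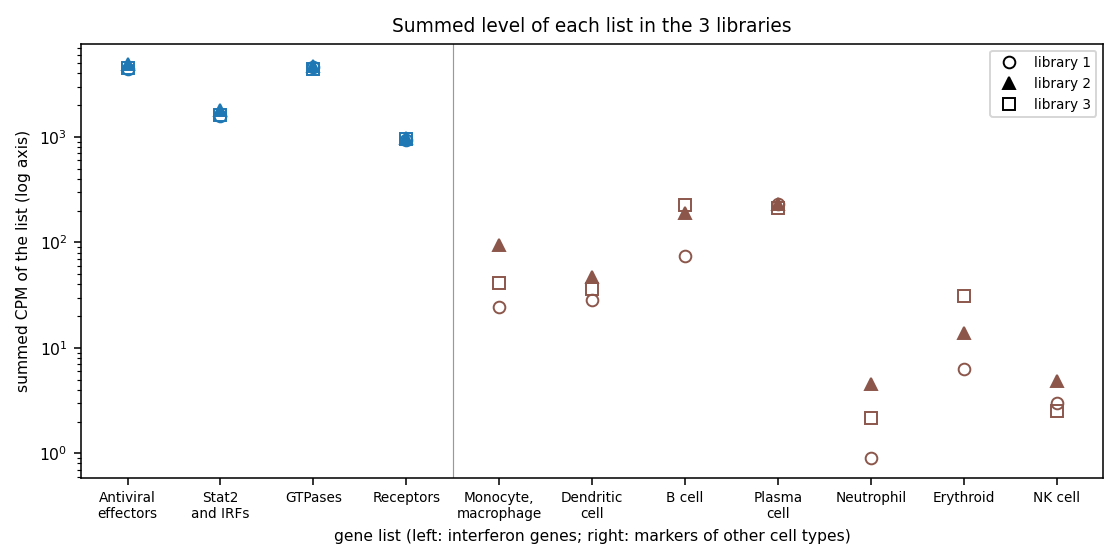
Summed CPM (log axis) of each interferon gene class, left, and of markers of other cell types, right, in the 3 libraries; each symbol is 1 library and filled triangles are library 2. The monocyte and macrophage sum is highest in library 2 (94.8 CPM) and lowest in library 1 (24.1), while the B cell sum is highest in library 3 (225).

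Other genes of the pathway, taken from lists outside the 48, set these levels in context. Of 10 ligand genes, only Ifng was detected, with 59, 47 and 65 counts, and 44.8% of its coding 31-mers occur in Gm49751 as well. The other 9 (Ifnb1, Ifna1, Ifna2, Ifna4, Ifna5, Ifne, Ifnk, Ifnl2 and Ifnl3) had a count of 0 in each library, for which the upper limits are 0.905, 0.974 and 1.08 CPM, the worth of 3 counts. The limits cover counting error only. Of their coding 31-mers, Ifna1 shares 88.3% with other genes, Ifna5 74.7%, Ifnl2 54.8%, Ifnl3 52.1%, Ifna2 38.1% and Ifna4 14.0%. How reads with multiple matches were handled is not given, so a count of 0 is less certain for these genes. Ifnb1, Ifne and Ifnk share none.

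Of 14 signalling genes, 13 were detected. Jak1, a kinase used by both receptors, stood at 305 ± 19.8 CPM per kb, the phosphatase Ptpn2 at 214 ± 17.0 and Ptpn6 at 168 ± 13.1. Jak1 (3718, 3265 and 2739 counts) exceeded Jak2 (479, 379 and 368). Ifnlr1, the chain specific to interferon lambda, had no count in any library. Socs1, the feedback inhibitor of Janus kinases, had 85, 145 and 35 counts, highest in library 2 (adjusted p = 4.77e-12, chi-square test) and the only other pathway gene called by edgeR (adjusted p = 0.00225).

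Of 12 genes of nucleic acid sensing, 9 were detected. Tmem173 (STING), at 351 ± 13.9 CPM per kb, was the highest, followed by Myd88 at 149 ± 6.91, Ikbke at 108 ± 5.83 and Tbk1 at 102 ± 6.96. Cgas, the enzyme upstream of STING, was far lower, with 13, 17 and 31 counts (4.38 ± 2.42 CPM per kb), and Tlr3 (3, 2 and 4 counts) and Tlr9 (0, 1 and 3) were near 0. Of 8 further GTPases, 5 were detected: Tgtp2 at 53.9 ± 2.39 CPM per kb, Tgtp1 at 34.5 ± 3.43, Gbp2b at 33.7 ± 4.56, Mx2 at 3.56 ± 1.54 and Gvin1 at 1.75 ± 0.426. All 5 lay below the lowest GTPase of the 48 genes, so the higher GTPase median given above holds for the listed GTPases only. Tgtp1 and Tgtp2 share 91.9% and 94.3% of their 31-mers, mainly with each other, and Gvin1 shares 99.6%, mainly with Gm4070. Gbp11 had no count and shares 42.2%, mainly with Gbp8. The levels of these genes are therefore uncertain.

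Of 48 further targets, 45 were detected. Ifi27l2a was highest at 698 ± 61.7 CPM per kb, followed by the immunoproteasome subunit Psmb8 at 625 ± 51.9 (both above 1.8 counts per coding base), Ly6a at 584 ± 42.5 and Slfn2 at 572 ± 38.2. The chemokine gene Cxcl9 had 1 count in all, and Ifi207 had 4. Of the 72 other pathway genes tested, 34 (47.2%) differed by the chi-square test, against 22.7% of all genes, 21 of them with library 2 highest. Among these were Oas3, with 642, 725 and 362 counts, Pml, with 566, 717 and 393, and Lgals3bp, with 957, 1139 and 778. Oasl1, with 15, 44 and 24 counts, and Ifit3b, with 20, 37 and 12, were also highest in library 2.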

How the data were processed

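The authors deposited whole-number counts per gene, 1 table for each of 3 libraries, not scaled. Per the notes deposited with them, they derive from alignments to mouse assembly mm10 with GENCODE M4. No source used here gives the aligner, counter, strand use, library kit or handling of duplicates and multiple matches. Identifiers were matched without version to GENCODE M21 of GRCm38 (the same assembly): 22195 matched a symbol, and 262, holding 0.136% of counts, did not. Levels are CPM of the library total, per kilobase of coding length between genes. At 2782259 to 3316275 counts per library, 3 counts are worth 0.905 to 1.08 CPM. Poisson intervals are exact, at 95%, and reflect counting error alone, as do the limits, because reads copied from 1 molecule are not independent.

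Differences between libraries were tested by chi-square (scipy 1.17.1, Benjamini-Hochberg adjusted) and, as alternatives, by edgeR 4.0.16 and DESeq2 1.42.0, each library against the other 2. These tests were run on simulated counts, with counting noise only for chi-square and with 1 small set spread between libraries for edgeR and DESeq2. There DESeq2 found fewer of the changed genes than edgeR did, so a gene that it does not call may still differ. The simulated spread was not taken from these libraries, so the check does not show how the tests fare on them. The members and gene lists were chosen with earlier results of these data known. By rule, counts per library are named for the 3 highest and 2 lowest genes per role, those that differ between libraries, those below 1 CPM, and those sharing over 20% of coding 31-mers. Of the other pathway lists, the 4 highest, the 2 lowest and those at 0 are named, except some that are not reported here; further ones were picked after their values were seen. Other alternatives were library scaling, count minimum, length, pseudocount, leaving out each library, and the motif window.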

Additional observations from a re-analysis of the deposited data

How the results depend on the processing

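All 46 matched genes stayed detected at 5 counts in each library, and 45 did at 10 CPM in each. Leaving out a library, or asking for 1 CPM on average, could not lose a gene already detected in every library. The count of genes that differ between libraries, 24, was 19 to 24 under other scalings and count minimums, 1 by edgeR, 0 by DESeq2 and 8 to 14 when 1 library was left out. Differing with library 2 highest were 17 genes, 15 to 18 under other scalings (chosen after seeing the data) and 1 by edgeR. The GTPase and antiviral medians, 266 and 84.0 CPM per kb, were 84.1 and 33.3 per kb of exon and 432 and 118 CPM without length. Without genes sharing over 20% of 31-mers the GTPase median was 362 and the log2 difference 2.17. Leaving out genes whose density reached 0.5 counts per coding base, the medians were 103 and 49.6 and the difference was 1.03. That filter selects on nearly the same measure that is compared, so no conclusion is drawn from it. No alternative added the further GTPases from outside the list, of which the 5 detected lay below every listed GTPase. Under every alternative run, the median of the listed GTPases stayed above that of the listed effectors, with log2 differences from 1.03 to 2.17. The cause of these shifts was not tested. Among the 36 listed genes with a promoter, the IRF share, 47.2%, was 41.7% before the start only and 47.2% with the shorter motif. Their STAT share, 41.7%, was 36.1% before the start only. Over all genes the IRF share, 3.99%, was 3.46% before the start only and 9.76% with the shorter motif. The STAT share over all genes, 9.55%, was 8.13% before the start only. No paired analysis was possible because there is 1 group of libraries. Depth limits the genes with under 100 counts per library, such as Ifngr2, Rsad2, Mx1, Oasl2 and Trim21.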
